A study of Mus musculus with 24 samples.

Results

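The hippocampus of old wild-type (WT) mice was compared with the cerebral cortex of mice of the same genotype and age, by messenger RNA signal on Affymetrix oligonucleotide arrays. The 6 arrays, 3 of hippocampus and 3 of cortex, were taken by their titles from the 24 arrays of the series. The mice were male C57BL/6J of wild-type genotype, aged 655 days, with no treatment named in the labels. For comparison, the same regions were taken from ApoD-KO (KO) mice at 655 days, which lack apolipoprotein D, and from WT mice at 100 days. Each of these groups of mice had 3 arrays per region. All 24 arrays, also those of KO mice at 100 days, entered the choice of tested IDs and the estimate of spread per ID. Each array carried RNA pooled from 2 to 3 mice, so that p-values measure the spread between pools. The labels do not say whether a hippocampus pool and a cortex pool came from the same animals.

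The hippocampus and the neocortex are both built mainly of glutamatergic projection neurons with a minority of GABAergic interneurons, set among astrocytes, oligodendrocytes, microglia and vessels. The hippocampus, which is needed to form new episodic and spatial memories, consists of the dentate gyrus with its granule cells and the CA fields with their pyramidal cells. The neocortex has more layers, each with its own classes of projection neurons. Each region keeps transcription factors, receptors and adhesion molecules that mark its neurons into adult life.

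The deposited values are log2 signals of 23879 Ensembl gene IDs, and a difference of 1 log2 is a factor of 2. No gene name stands beside an ID in the deposited table, and the RefSeq reference of assembly GRCm38.p6 holds 0 Ensembl IDs, so 0 of the 23879 could be named. None of the 37 lists of region, neuron, glia and vessel genes drawn up for the comparison could therefore be described, and the labels hippocampus and cortex could not be checked against marker genes. Roles of glial and neuronal genes are for the same reason not given, and the account below is by ID and by counts. The level under which a signal is background is unknown. The 14327 IDs with a mean over the 24 arrays above 6.63 log2 were tested.

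Hippocampus and cortex were far apart at 655 days. Over the tested IDs, the root mean square distance between a hippocampus array and a cortex array was 0.343 to 0.368 log2, against 0.138 to 0.150 between hippocampus arrays and 0.132 to 0.145 between cortex arrays. Each pair from different regions was thus farther apart than each pair of 1 region. The first principal component of the 6 arrays held 80.8% of their variance, with the 3 hippocampus arrays at 19.6, 20.7 and 19.6 and the 3 cortex arrays at -20.0, -19.2 and -20.8. The second held 6.39% and did not separate the regions. The median SD of an ID between the 3 arrays of a region was 0.0667 log2 in hippocampus and 0.0667 in cortex.

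Hippocampus differed from cortex in 4032 IDs, 28.1% of those tested, at an adjusted p under 0.05 (limma, Benjamini-Hochberg). The IDs split about evenly by direction. In hippocampus 2031 IDs were higher (14.2% of those tested) and 2001 were lower (14.0%). Most of these differences were small, with a median of 0.337 log2 (1.26-fold) among the higher IDs and 0.342 (1.27-fold) among the lower. The smallest difference called was 0.109 log2. Because the tissue was measured in bulk, a change in the number of cells of a type and a change in RNA per cell cannot be told apart.

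Large differences were few. A difference of at least 1 log2 was called for 325 IDs (2.27% of those tested), 175 higher (1.22%) and 150 lower (1.05%). At 2 log2 or more, a factor of 4, there were 49, of which 29 were higher and 20 lower. At 3 log2 or more there were 8, of which 7 were higher and 1 was lower. The share that was higher in hippocampus was thus 53.8% at 1 log2 or more and 59.2% at 2 log2 or more, beside 50.4% of all calls, and the balance itself was not tested.

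The 3 hippocampus arrays all lay above or all below the 3 cortex arrays in 6287 of the tested IDs, or 43.9%, with hippocampus above in 3163 and below in 3124, beside 28.1% called. Of these, 2340 did not pass the test. Of the called IDs 3947 were without overlap and 85 overlapped, a count that describes the calls, since it comes from the arrays that made them.

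Calls were more frequent where the signal was brighter. When the tested IDs were cut into 5 equal classes by their mean signal over the 24 arrays, 17.4% were called in the dimmest, then 24.2%, 28.1%, 34.3%, and 36.7% in the brightest. The spread between arrays was narrower in the brightest class than in the dimmest. The median SD was 0.0939 log2 in hippocampus and 0.0759 in cortex in the dimmest class, against 0.0446 and 0.0502 in the brightest. Differences of at least 1 log2 did not follow this order, with 39, 90, 93, 67 and 36 IDs from the dimmest to the brightest class. In the dimmest class 28 of the 39 were higher in hippocampus and 11 lower, and in the brightest 14 of the 36 were higher and 22 lower. Among the 9552 IDs left out for low signal, 12 had a mean at least 1 log2 higher in hippocampus and 7 at least 1 log2 lower, and these were not tested.

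**Figure D1:**
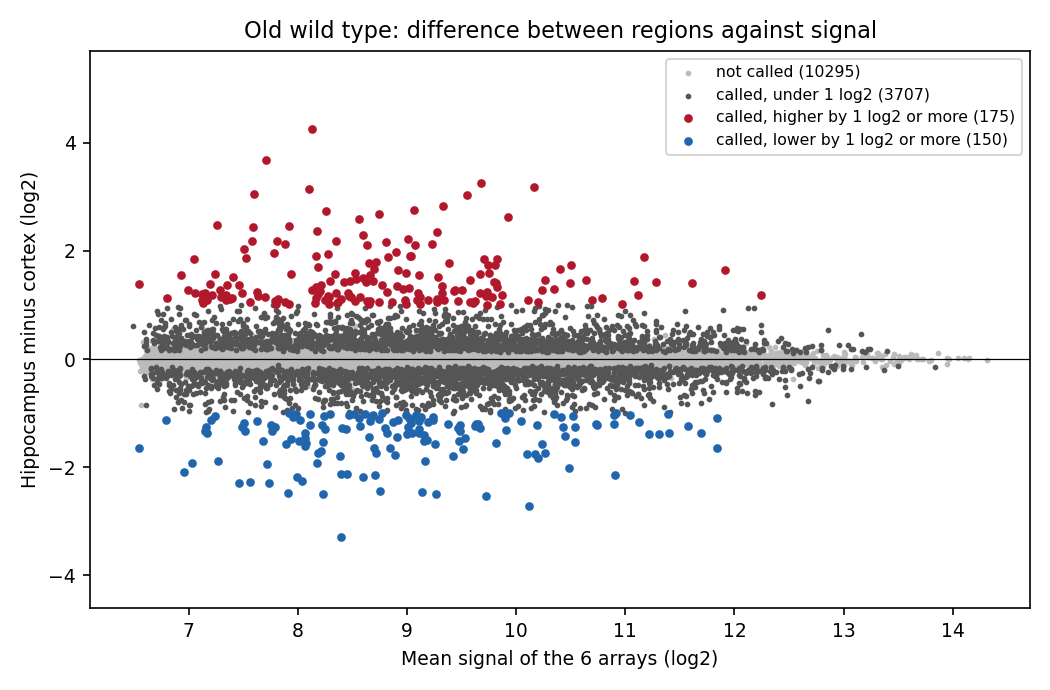
Each point is 1 of the 14327 tested IDs in old WT mice, with the mean signal of the 6 arrays on the x axis and hippocampus minus cortex on the y axis, both in log2. Red points (175) were called and higher in hippocampus by at least 1 log2 and blue points (150) lower, dark grey points were called with a smaller difference, and light grey points were not called. The largest difference, 4.26, lies above 0 and the largest below 0 is -3.29.

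The IDs named here are the pair with the largest called difference in each direction. For ENSMUSG00000027971 the measured difference was the largest. Its signal was 10.24, 10.36 and 10.19 log2 in the 3 hippocampus arrays, against 5.60, 6.73 and 5.68 in the 3 cortex arrays. The groups lay 3.45 log2 apart at their nearest, and replicate 2 of cortex stood above the other cortex arrays. The mean difference was 4.26 log2 (SE 0.24, 19.1-fold, limma adjusted p = 4.4e-12). The cortex mean of 6.00 lay below the 6.63 log2 limit for testing, which the ID passed through its hippocampus signal, so the fold and its rank are uncertain.

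ENSMUSG00000028004 was also far higher in hippocampus, with tighter cortex arrays. The hippocampus arrays read 9.60, 9.61 and 9.45 log2, against 5.76, 6.01 and 5.85 in cortex. The nearest arrays of the regions were 3.43 log2 apart. The difference was 3.68 log2 (SE 0.12, 12.8-fold, limma adjusted p = 1.4e-15). All 3 cortex arrays lay below the limit for testing, so this fold is uncertain too.

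In the other direction ENSMUSG00000030792 led. It read 6.70, 6.57 and 6.98 log2 in hippocampus, against 9.98, 10.04 and 10.09 in cortex, and the groups did not overlap. Its hippocampus values lay close to the 6.63 log2 that served as the limit for testing, so the size of the difference is less certain than its direction. The difference was -3.29 log2 (SE 0.12, 9.77-fold, limma adjusted p = 2.4e-15).

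ENSMUSG00000061086 was lower in hippocampus, with signals well above the limit for testing in both regions. It read 8.72, 8.82 and 8.75 log2 in hippocampus, against 11.49, 11.46 and 11.48 in cortex. The 3 arrays of each region were close together and the regions lay 2.64 log2 apart at their nearest. The difference was -2.71 log2 (SE 0.089, 6.55-fold, limma adjusted p = 7.6e-16).

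**Figure D2:**
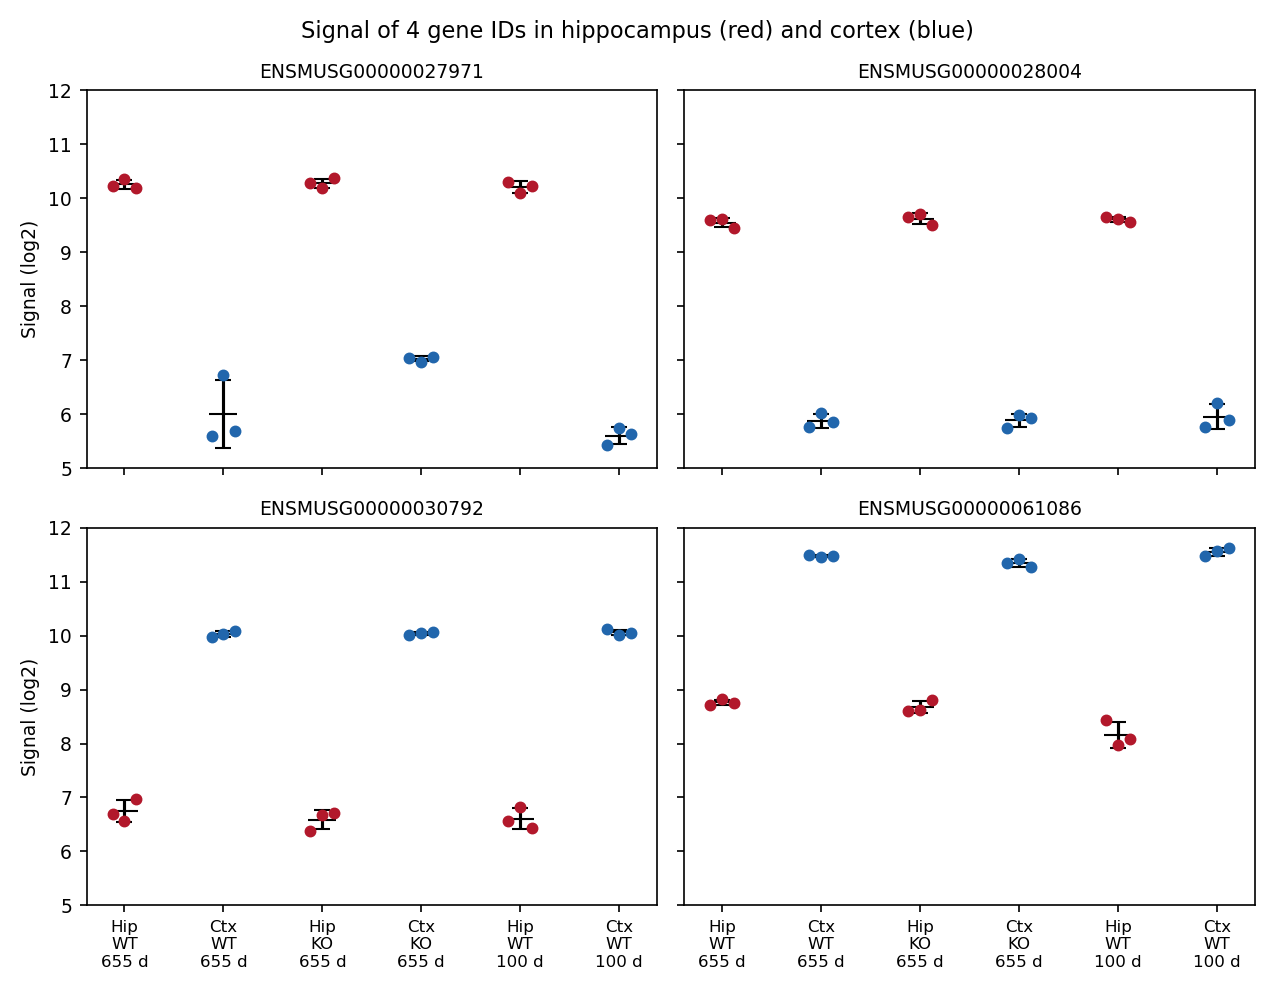
Signal in log2 (y axis) of the 4 named IDs in hippocampus (red) and cortex (blue) of old WT, old KO and young WT mice (x axis). Points are arrays, horizontal bars the group mean and error bars the SD (n = 3 arrays). In each panel the 3 hippocampus arrays and the 3 cortex arrays of the same genotype and age do not overlap.

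The same difference between regions was measured in old KO mice on 6 other arrays. Of the 4032 IDs called in old WT, 3132 were called in the same direction in old KO, which is 77.7% of the old WT calls and 73.7% of the 4247 old KO calls (29.6% of those tested). The old KO calls comprised 1895 higher (13.2%) and 2352 lower IDs (16.4%). No ID, a count of 0, was called in opposite directions. All 325 IDs called at 1 log2 or more in old WT had the same sign in old KO, and 323 of them were called there. Their median size was 1.33 log2 in old WT and 1.32 in old KO. Across the 14327 IDs the 2 sets of differences had r = 0.937. That is a description across IDs, which are not independent replicates. Both comparisons share 1 estimate of spread per ID, though no array.

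Chosen the other way, from the old KO arrays alone, 305 IDs differed by at least 1 log2 between regions (2.13% of those tested), 169 higher (1.18%) and 136 lower (0.949%) in hippocampus. In old WT 303 of the 305 showed no overlap between the regions in the same direction, beside 43.9% of all tested IDs without overlap in either direction. All 305 were called in old WT, beside 28.1% of all tested IDs.

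A difference between KO and WT in the regional contrast at 655 days was called for 0 IDs (limma). At an unadjusted p under 0.05 there were 493 of the 14327 tested IDs. That is a smaller share than the 0.05 that this limit lets pass where no ID differs. The count was not stable, with 314 without old WT cortex replicate 1, and 833, a larger share than 0.05, with array weights. How large a change this comparison could detect was not simulated, so the 0 calls do not show that the genotypes are alike. ENSMUSG00000027971 had a difference between regions of 3.25 log2 in old KO, against 4.26 in old WT. In old KO it read 10.28, 10.19 and 10.37 log2 in hippocampus and 7.05, 6.97 and 7.07 in cortex. The old KO cortex arrays all lay above the 3 old WT cortex arrays, and the hippocampus arrays of the genotypes overlapped. The change in the regional difference, KO minus WT, was -1.01 log2 (95% interval -1.70 to -0.31) and did not pass the test (limma adjusted p = 0.999). The interval is not adjusted for the number of IDs tested, and the cortex signals behind it lie around the 6.63 log2 limit for testing. For ENSMUSG00000028004, ENSMUSG00000030792 and ENSMUSG00000061086 the change in the regional difference was 0.06, -0.17 and 0.04 log2. The named IDs were chosen by size on the old WT arrays that enter this change. A smaller difference in KO is thus partly built into the choice.

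At 100 days the regions of WT mice differed in more IDs. The count was 4032 at 655 days, against 5595 at 100 days (39.1% of those tested), with 2509 higher (17.5%) and 3086 lower (21.5%) in young hippocampus. The balance of the young calls turned with the scaling, with 3137 higher and 2695 lower when each array was centred on the median of the tested IDs, and 2176 and 3457 when it was centred on the median of all IDs. Of the old calls, 3003 were called in the same direction in young mice, which is 74.5% of the old calls and 53.7% of the young ones. All 325 IDs called at 1 log2 or more at 655 days had the same sign at 100 days, and 322 of them were called there. Across the 14327 IDs the differences at the 2 ages, from different arrays, had r = 0.870.

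Called in opposite directions at the 2 ages were 24 IDs. Of these, 22 were higher in hippocampus at 655 days and lower at 100 days, and 2 the reverse. Their differences were modest, from 0.149 to 0.414 log2 in size in old mice and from 0.157 to 0.606 in young mice. They were chosen on the arrays that enter the test of the difference between ages, so its result for them is not given as support. The split of 22 and 2 was counted with the deposited scaling only, and the balance of the age interaction, given below, turned with the scaling.

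**Figure D3:**
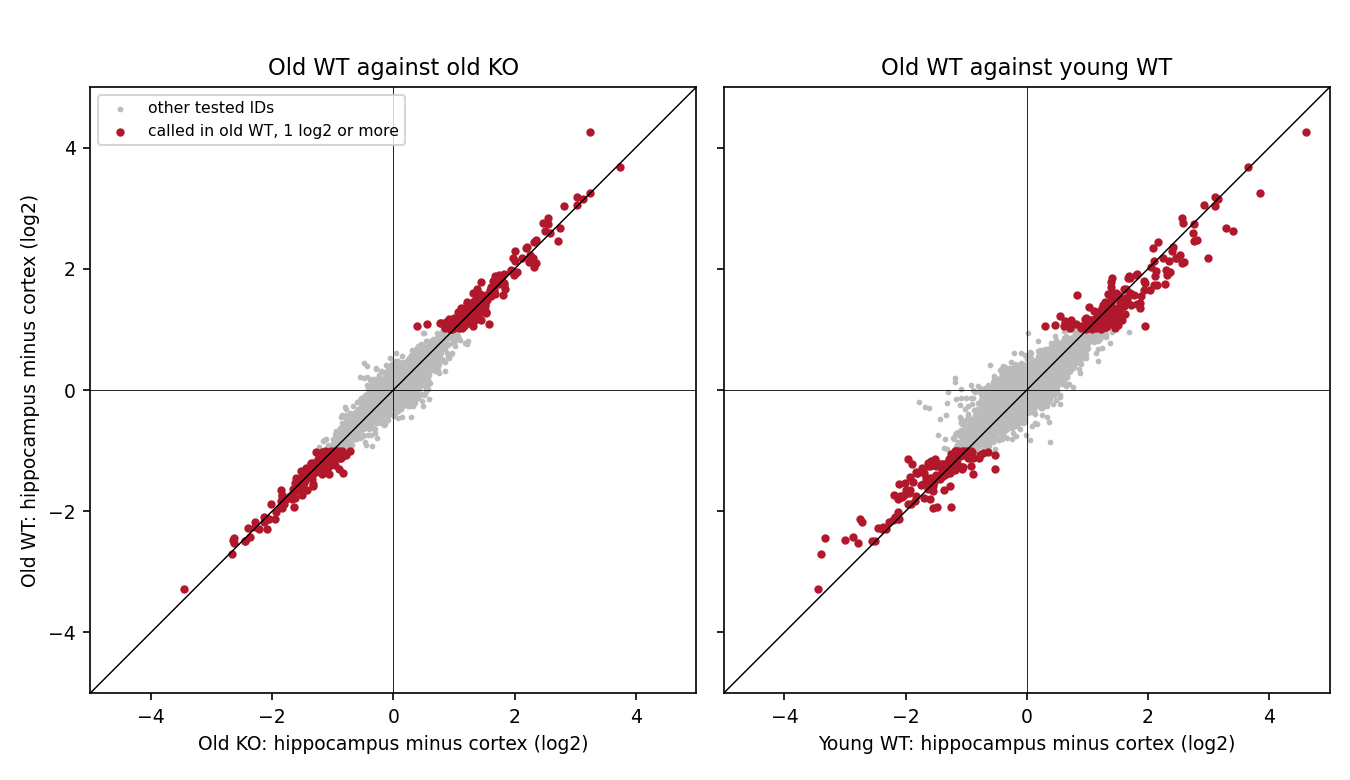
Hippocampus minus cortex in old WT mice (y axis, log2) against the same difference in old KO mice (left panel) and in young WT mice (right panel), for the 14327 tested IDs. Red points are the 325 IDs called in old WT at 1 log2 or more, grey points all others, and the diagonal marks equal differences. No red point lies on the other side of 0, and the points scatter more widely against young WT (r = 0.870) than against old KO (r = 0.937).

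The change of the regional difference with age was tested as an interaction. It was called for 292 IDs (2.04% of those tested), of which 213 had a higher value of hippocampus minus cortex at 655 days than at 100 days (1.49%) and 79 a lower one (0.551%). The balance turned with the scaling of the arrays. With each array centred on the median of the tested IDs, 182 were higher and 240 lower. Centring on the median of all IDs gave 333 and 69, and quantile normalization 261 and 209. The count also rested on single arrays. It was 69, 524 and 6 without old cortex replicates 1, 2 and 3, and 72, 103 and 135 without old hippocampus replicates 1, 2 and 3. It was 58, 180 and 597 without young cortex replicates 1, 2 and 3, and 171, 28 and 103 without young hippocampus replicates 1, 2 and 3. Among the 213, the median difference between regions was 0.05 log2 at 655 days, against -0.41 at 100 days. Among the 79 it was 0.10 at 655 days, against 0.50 at 100 days. These medians are of IDs chosen on the same arrays and only describe the calls.

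The 4 named IDs were chosen by size on old WT arrays, which also enter the test of the change with age. Of these IDs, the change was called for ENSMUSG00000061086. Its cortex signal was 11.49, 11.46 and 11.48 log2 at 655 days, against 11.48, 11.57 and 11.63 at 100 days. In hippocampus the old arrays read 8.72, 8.82 and 8.75 log2, against 8.43, 7.98 and 8.08 in the young arrays. The hippocampus arrays of the 2 ages did not overlap, while the cortex arrays did. The regional difference was -2.71 log2 at 655 days and -3.40 at 100 days, a change of 0.68 (SE 0.13, limma adjusted p = 0.015), which was 0.059 without cortex replicate 3 of old WT mice. For ENSMUSG00000027971 the change was -0.35 log2 (adjusted p = 0.598), for ENSMUSG00000028004 0.02 (adjusted p = 0.959) and for ENSMUSG00000030792 0.16 (adjusted p = 0.623), none past the limma test.

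Of the large regional differences chosen in old KO arrays, most were smaller at 655 than at 100 days in WT mice. This is a description across IDs, which are not independent replicates, and no test was made of it. The 305 IDs chosen in old KO arrays had a median size of 1.36 log2 in old WT mice, against 1.48 in young WT mice. The regional difference was smaller at 655 days in 207 of the 305 (67.9%), with a median change in size of -0.0958 log2, where over all tested IDs, signed by their old KO difference, it was smaller in 52.6% with a median change of -0.0103. The age interaction was called for 26 of the 305, or 8.52%, beside 2.04% of all tested IDs. The regional difference was smaller at 655 days in 23 of these and larger in 3. These calls were not recounted with arrays left out. Over all tested IDs the interaction count fell from 292 to 6 without old cortex replicate 3, so the 26 is uncertain. The median change stayed between -0.120 and -0.0859 without each of the 12 WT arrays in turn, and the share that was smaller between 63.3% and 70.5%. Quantile normalization gave a median change of -0.0954 log2, centring on the median of all IDs -0.103, and centring on that of the tested IDs -0.0933.

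Each side of the 2 sets changed by little. Over the 169 IDs higher in hippocampus, the mean signal in hippocampus was 9.51, 9.54 and 9.52 log2 in the old arrays, against 9.54, 9.52 and 9.53 in the young arrays. Their mean in cortex was 7.996, 7.973 and 7.971 in the old arrays, against 7.885, 7.973 and 7.850 in the young arrays. Old and young arrays overlapped on both sides, by a narrow margin in cortex.

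Over the 136 IDs lower in hippocampus, the mean signal in hippocampus was 8.35, 8.27 and 8.30 log2 in the old arrays, against 8.29, 8.18 and 8.15 in the young arrays. Their mean in cortex was 9.79, 9.77 and 9.81 in the old arrays, against 9.80, 9.82 and 9.80 in the young arrays. Here too the ages overlapped on both sides. The median change from 100 to 655 days was -0.0353 log2 in hippocampus and 0.0551 in cortex for the 169 IDs, and 0.0660 in hippocampus and -0.0291 in cortex for the 136. Which side moved more depended on the scaling: with each array centred on the median of the tested IDs these medians were -0.0786 and 0.0571 for the 169, and 0.0228 and -0.0272 for the 136. No test was made of these means.

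**Figure D4:**
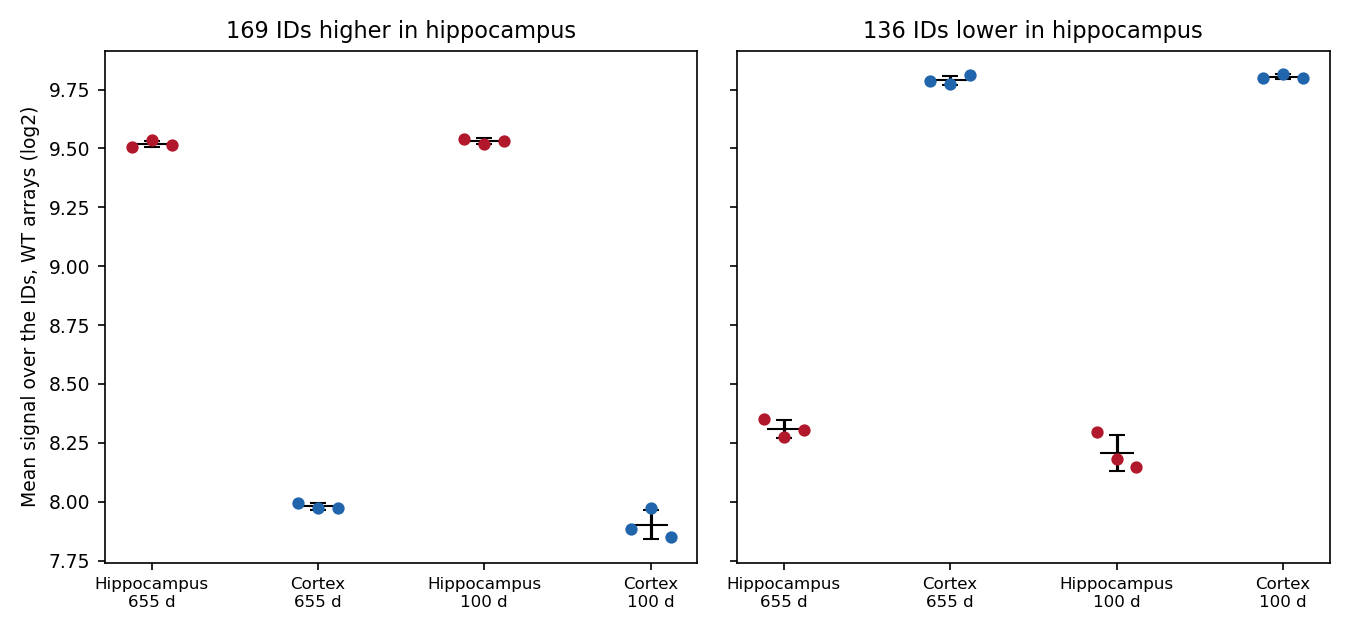
Mean signal in log2 (y axis) of the 169 IDs higher (left panel) and the 136 IDs lower (right panel) in hippocampus of old KO mice, on the WT arrays at 655 and 100 days (x axis). Points are arrays, red for hippocampus and blue for cortex, with the group mean and SD (n = 3 arrays). The regions stand far apart at both ages, and the old and young arrays of a region overlap in each panel.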

How the data were processed

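The authors deposited 1 table, with a log2 signal for each of 23879 gene IDs on each of 24 arrays. Values ran from 3.99 to 14.4 and 0 were missing. The log2 unit was inferred from the values, and the array medians were 7.31 to 7.42. MAS5 and RMA are named, per the submitters' processing notes, without a role. Not given in the sources used here are the array model, the annotation and how probes were joined into IDs. The number of arrays limits the precision.

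IDs with a mean above the 40th percentile were kept. With limma 3.58.1 in R 4.3.3, lmFit took 1 mean for each of the 8 groups (16 residual degrees of freedom over the 24 arrays) and eBayes moderated the spread. P-values were two-sided and adjusted over the 14327 tested IDs within each of 5 comparisons. On simulated data for hippocampus minus cortex in old WT, with 200 of 14327 IDs changed, changes of 0.25 log2 were recovered in 36%, of 0.5 log2 in 90%, and of 1 and 2 log2 in 100%, while 5 unchanged IDs were called. The simulated noise was independent between IDs, and far fewer IDs were changed than were called in the data. These figures therefore need not hold for the data.

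The named IDs are the first 2 in each direction by size among calls without overlap of the arrays. Parts of the rule that need gene symbols, all 37 gene lists and the marker check were not run, as no table paired IDs with names. Comparisons and lists were chosen with earlier results of these data known. The alternatives were 2 other filters, quantile normalization, 2 ways of median centring, intensity trend, robust moderation, array weights, smaller sets of arrays, replicate blocks and leaving out arrays. The labels give no batch.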

Additional observations from a re-analysis of the deposited data

Results flagged for a closer look

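The test of the difference between ages, on hippocampus minus cortex in WT mice at 655 and 100 days, was passed by 292 IDs. The count was 6 without old cortex replicate 3 and 597 without young cortex replicate 3, so which IDs differ is uncertain. One of the 4 named IDs, ENSMUSG00000061086, was among the 292. Its regional difference at 655 days minus that at 100 days was 0.68 log2, from 0.59 to 0.82 under 24 alternatives, of which 23 kept the call.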

How the results depend on the processing

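The count of IDs that differed between regions stayed within 1.5 times its value under each alternative run at both ages in WT and in old KO mice, apart from the added limit of 1 log2. In old WT it was 3260 to 3658 when each of the 6 arrays was left out in turn, in young WT 4520 to 5513 and in old KO 3564 to 3832. Calls of at least 1 log2 in old WT numbered 325. Their number was 344 with no filter, 228 with a filter at the 60th percentile, and 321 to 340 when each of the 6 arrays was left out in turn. The age interaction, 292 IDs, was 160 with no filter, 463 with a filter at the 60th percentile, 470 after quantile normalization, 931 with array weights, 61 with a fixed replicate block, and 6 to 597 when 1 of its 12 arrays was left out. Without replicate 1 of young KO hippocampus, the array farthest from its group mean, it was 519, an alternative chosen after seeing the data, as was centring on the median of the tested IDs. The cause of these shifts was not tested. The genotype interaction called 0 IDs under each alternative run. The 4 named IDs kept their direction and their call in old WT under each alternative that tested them, with differences of 4.05 to 4.62, 3.62 to 3.75, -3.40 to -3.20 and -2.74 to -2.69 log2 in the order named. These IDs were chosen as the largest calls without overlap on the same arrays, so that outcome was largely set by the choice. Their p-values were larger when the 6 old WT arrays alone gave the spread. In the same order the limma adjusted p was then 6.5e-06, 4.4e-08, 1.41e-07 and 2.26e-08.

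Replicate numbers were not found to pair the regions. The deviations of same-numbered hippocampus and cortex pools of old WT mice had correlations of -0.207, -0.0403 and 0.130. With the number as a fixed replicate block, 3756 IDs were called in old WT in place of 4032, and with a random replicate block 4052. The fixed replicate block called 5290 in young WT and 4007 in old KO. Detection calls were not used, so the size of differences that involve dim signals is uncertain.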
